A study of Mus musculus with 3 samples.

Results

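Genes that build or serve the junctions between epithelial cells were followed through single cell RNA-seq data of the developing mouse prostate: Cdh1, Cdh3, Cldn3, Cldn4, Cldn12, Cldn23, F11r, Cgn and Rab25. All 9 had a row among the 9781 gene rows that were used, and they were chosen by name. None of them was used to cluster the cells or to name a class, but the naming rules were set after values of the genes had been seen.

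Epithelial cells hold together through adherens junctions, in which cadherins of neighbouring cells bind each other, and through tight junctions, in which claudins and junctional adhesion molecules seal the space between cells. In the prostate and urogenital sinus, basal cells lie on the basement membrane and luminal cells face the lumen, where the tight junction belt is placed. Cdh1 encodes E-cadherin, the main cadherin of epithelia, and Cdh3 encodes P-cadherin, known for its place in basal layers. Cldn3, Cldn4, Cldn12 and Cldn23 encode claudins. F11r encodes JAM-A, a junctional adhesion molecule also known from endothelium, leukocytes and platelets. Cgn encodes cingulin, a plaque protein on the inner face of tight junctions, and Rab25 encodes a small GTPase of the Rab11 family that serves recycling traffic in epithelial cells.

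The samples were male urogenital sinus at E18.5 (embryonic days) and prostate at postnatal days 14 and 35, with 1 library for each age. The labels call all 3 tissues normal and give neither genotype nor strain, nor how many animals went into a library, and the study's methods describe its mice as a mix of C57BL/6 and 129S1/SvImJ. Tissue was broken into single cells with collagenase and TrypLE, in media that by the methods held dihydrotestosterone and Y-27632, and transcripts were counted by their 3′ ends as unique molecular identifiers (UMIs). Cell names ended in 1, 2 or 3 and no label tied an ending to an age, so the cells of each ending, called barcode sets 1, 2 and 3 here, were described side by side and no age was compared with another. With 1 library for each age there was no replicate, and the intervals given here hold the error of counting UMIs and nothing else.

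The sets held 766, 5350 and 8457 cells, with median UMIs per cell of 19357, 1738 and 1788. Set 1 thus had far more UMIs per cell. Barcodes shared between sets numbered 1 for sets 1 and 2, 0 for sets 1 and 3, and 13 for sets 2 and 3. Clusters were named from fixed marker genes that include no member. The epithelium markers, such as Esrp1 and Elf3, named 4 of 14 clusters, which together held 4366 of the 14573 cells: 150, 1440 and 2776 in sets 1 to 3. All 13 epithelium markers were detected in at least 10% of these cells in each set. A further cluster, number 7, carried 9 of the 13 epithelium markers but also 7 of 7 smooth muscle markers and stayed unnamed. The fibroblast-like cells, with 357, 1659 and 2630 cells, served as the class that should lack the members.

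Within the epithelium-like cells, 10 subclusters were found without use of the members. Subclusters 0, 1, 5 and 9 carried 3 to 5 of 7 basal markers, with Lamb3 and Aqp3 among their leading genes, and are called basal-like, with 41, 745 and 1545 cells in sets 1 to 3. Subcluster 0 held most basal-like cells of set 3 (1133), whereas subclusters 1 and 5 held most of those of set 2 (310 and 332). Subclusters 6 and 8 carried 5 and 6 of 9 luminal markers, Wfdc2 and Pigr leading subcluster 8, and are called luminal-like, with 1, 70 and 273 cells. Subcluster 7 carried 5 of 7 markers of urothelium, the lining of the bladder and of part of the urethra, Ivl among its leading genes, and is called urothelium-like, with 34, 43 and 121 cells. The other 3 kept their numbers: subcluster 2 carried 4 of 9 luminal and 4 of 7 urothelial markers, subcluster 3 was led by Cracr2b and Tspan1, and subcluster 4, with 3 of 7 basal markers, by the muscle and stroma genes Myl9, Actg2 and Col1a2. Levels are given as CPM, the UMIs of a gene per 1000000 UMIs of the class, and a class was described in a set only where it had at least 20 cells there. Each molecule is counted once at its 3′ end, so no transcript length enters a level.

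Cdh1 and Cdh3 are neighbours in the genome, as are Cldn3 and Cldn4 (GRCm38.p6). Cdh3 (chromosome 8, 106510852 to 106556911) is the next protein-coding gene before Cdh1 (chromosome 8, 106603350 to 106670247), with 46438 bases between them. Cldn4 (chromosome 5, 134945123 to 134946934) and Cldn3 (chromosome 5, 134986214 to 134987476) are likewise next to each other, 39279 bases apart. As described below, the basal-like and luminal-like levels of Cdh3 and Cdh1 differed in opposite directions, and those of Cldn3 and Cldn4 differed by unlike amounts. The promoter windows of Cldn3 (chr5:134985964-134986263, plus strand) and Cldn4 (chr5:134946885-134947184, minus strand) are shown for that reason, beside those of Rab25 (chr3:88548230-88548529, minus strand) and Cgn (chr3:94786433-94786732, minus strand), which were higher in luminal-like cells. Each runs from 250 bases before the start of the RefSeq transcript to 50 after it, read 5′ to 3′ on the gene's strand, and capitals mark the letters of 2 motifs searched on both strands, CAGGTG (the E-box form bound by Snail and ZEB factors; reverse CACCTG) and AACNNGTT (a loose form of the letters bound by grainyhead-like factors).
Cldn3: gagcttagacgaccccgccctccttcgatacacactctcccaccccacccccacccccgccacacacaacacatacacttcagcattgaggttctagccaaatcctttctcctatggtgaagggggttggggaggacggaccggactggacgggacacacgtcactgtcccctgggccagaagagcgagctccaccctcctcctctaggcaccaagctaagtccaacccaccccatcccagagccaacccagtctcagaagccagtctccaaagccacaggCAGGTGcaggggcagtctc
Cldn4: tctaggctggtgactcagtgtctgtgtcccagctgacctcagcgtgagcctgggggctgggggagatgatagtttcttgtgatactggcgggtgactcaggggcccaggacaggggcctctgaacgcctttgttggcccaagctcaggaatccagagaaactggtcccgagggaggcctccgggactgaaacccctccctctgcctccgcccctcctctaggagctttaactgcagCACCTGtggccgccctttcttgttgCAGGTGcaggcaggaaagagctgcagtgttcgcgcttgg
Rab25: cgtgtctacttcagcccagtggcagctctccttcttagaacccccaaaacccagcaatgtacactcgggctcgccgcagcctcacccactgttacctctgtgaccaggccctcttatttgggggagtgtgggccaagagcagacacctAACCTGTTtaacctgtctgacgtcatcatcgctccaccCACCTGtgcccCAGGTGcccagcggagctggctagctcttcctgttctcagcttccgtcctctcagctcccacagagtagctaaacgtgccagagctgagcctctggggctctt
Cgn: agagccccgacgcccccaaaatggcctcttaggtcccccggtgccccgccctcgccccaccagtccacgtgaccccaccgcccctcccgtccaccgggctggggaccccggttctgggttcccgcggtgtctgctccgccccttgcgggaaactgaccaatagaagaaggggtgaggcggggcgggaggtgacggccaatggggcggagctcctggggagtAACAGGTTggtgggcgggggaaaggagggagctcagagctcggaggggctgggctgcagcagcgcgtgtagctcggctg
The E-box letters occurred 1 time in the Cldn3 window, 2 times in that of Cldn4, 2 times in that of Rab25 and 0 times in that of Cgn. They were present in 20.2% of all 32851 promoter windows of this length. AACNNGTT occurred 1 time each in the Rab25 and Cgn windows and in neither claudin window, against 4.2% of all windows. The F11r window (not shown) held the E-box letters 1 time and AACNNGTT 0 times, and none of the 3 windows of Cldn12 held either. The promoters of Cdh1, Cdh3 and Cldn23 were not analysed here. A match of letters does not show that a factor binds there.

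Of the 9 genes, 7 in set 1, 8 in set 2 and 8 in set 3 exceeded their fibroblast-like level at least 2-fold in epithelium-like cells. Among all rows with at least 20 UMIs over both classes, 16.2%, 17.5% and 23.2% were that much higher. The median log2 ratio over the 9 genes was 6.37, 4.08 and 5.70, against -0.15, -0.03 and 0.19 over all such rows. Cldn12 was within 2-fold in every set, and Cdh3 was within 2-fold in set 1.

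**Figure D1:**
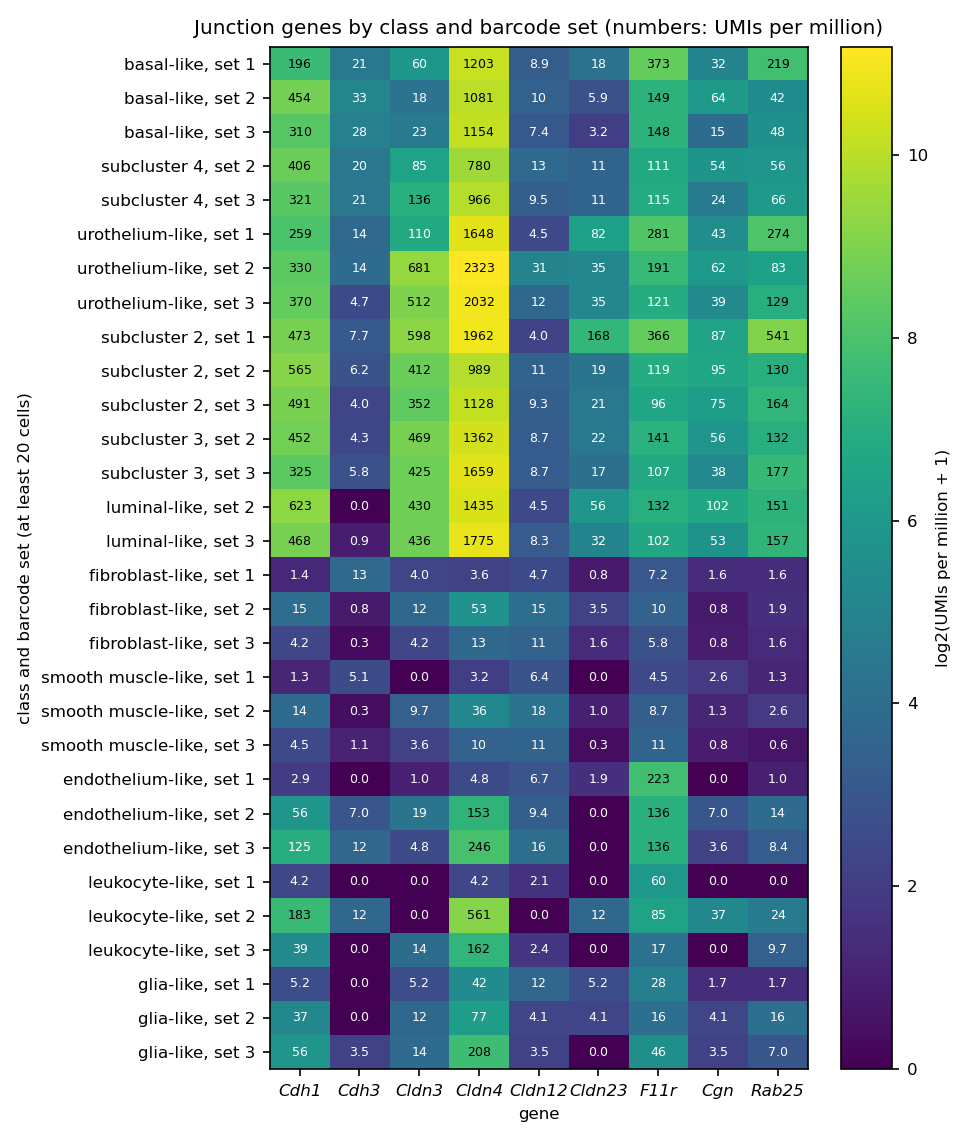
Level of each gene (columns) in each class and barcode set with at least 20 cells (rows). Colour gives log2(CPM + 1) and the printed number the CPM. Cldn3 is low in the basal-like rows (18 to 60) beside the luminal-like rows (430 and 436), Cdh3 runs the other way, and F11r has 223, 136 and 136 CPM in the endothelium-like rows.

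E-cadherin was present throughout the epithelium. Cdh1 stood at 347, 477 and 391 CPM in the epithelium of sets 1 to 3, against 1.35, 15.0 and 4.22 CPM in fibroblast-like cells. The log2 ratio was 8.0 (95% counting interval 7.08 to 9.13) in set 1, 4.99 (4.54 to 5.49) in set 2 and 6.53 (5.83 to 7.34) in set 3. The sets differed more in the fibroblast-like than in the epithelial rate. In set 2 the median of the 13 epithelium markers in fibroblast-like cells was 4.09% of their epithelial rate, and Cdh1 stood at 3.14% of its own. The same percentages were 0.61 and 0.39 in set 1, and 1.09 and 1.08 in set 3, so Cdh1 in fibroblast-like cells moved with the markers. The part of free RNA or mixed droplets in these values was not tested.

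For P-cadherin, Cdh3 levels were 12.1, 18.7 and 12.8 CPM in epithelium-like and 13.4, 0.768 and 0.264 CPM in fibroblast-like cells. In set 1 the classes therefore did not differ beyond counting error (log2 ratio -0.14, -0.58 to 0.30). Fibroblast-like cells of set 2 held only 2 UMIs and those of set 3 only 1, and with these raised to a floor of 3 UMIs the log2 ratios were 4.02 (2.45 to 6.31) and 4.01 (2.45 to 6.30).

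Cldn4 had the highest level of the claudins measured here, with 1685, 1072 and 1361 CPM in epithelium-like against 3.60, 52.6 and 12.7 CPM in fibroblast-like cells, and log2 ratios of 8.87, 4.35 and 6.75. Cldn3 stood at 336, 208 and 263 CPM in epithelium-like and at 4.05, 12.3 and 4.22 CPM in fibroblast-like cells, with log2 ratios of 6.37, 4.08 and 5.96. Both were higher in the epithelium of every set by far more than counting error. Cldn23 was less abundant: its 108, 16.2 and 17.6 CPM compare with 0.750, 3.46 and 1.58 CPM in fibroblast-like cells, for log2 ratios of 7.17 (5.94 to 8.80), 2.23 (1.26 to 3.39) and 3.48 (2.34 to 4.93).

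Cldn12 stood apart from the other claudins. It had 5.23, 11.2 and 8.71 CPM in epithelium-like and 4.65, 15.4 and 10.8 CPM in fibroblast-like cells. The log2 ratios of 0.17 (-0.55 to 0.90), -0.45 (-1.0 to 0.12) and -0.31 (-0.82 to 0.22) all had intervals that reached 0 and that excluded a 2-fold excess in the epithelium.

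The remaining 3 genes were epithelial in every set by this contrast. F11r stood at 346, 132 and 118 CPM against 7.20, 10.4 and 5.80 CPM in fibroblast-like cells, with log2 ratios of 5.59, 3.67 and 4.35. Cgn stood at 61.6, 71.3 and 41.1 CPM in the epithelium, against 11, 2 and 3 UMIs in all fibroblast-like cells of the sets. Its log2 ratios were 5.22 (4.37 to 6.23), 5.95 (4.40 to 8.23, with 2 UMIs raised to the floor) and 5.70 (4.15 to 7.98). Rab25 stood at 394, 81.3 and 115 CPM against 1.65, 1.92 and 1.58 CPM, with log2 ratios of 7.90, 5.40 and 6.19. When single cells were classed by their own markers, the ratios were 6.23, 2.49 and 3.33 for Cdh1, 6.34, 2.39 and 3.59 for Cldn4 and 4.80, 2.5 and 3.59 for Cgn, and those of the 7 genes other than Cdh3 and Cldn12 lay between 1.69 and 6.82. In set 1 thinned to 900 UMIs, Cdh1 was at 4.95, Cldn3 at 4.84, Cldn4 at 7.46 and Rab25 at 5.06.

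**Figure D2:**
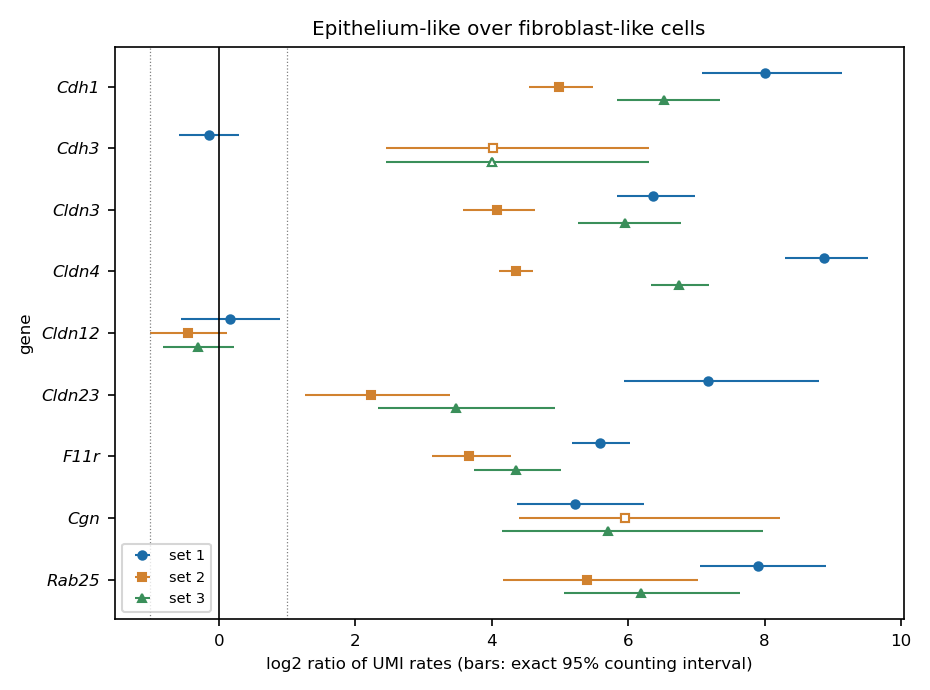
Log2 ratio of the UMI rate in epithelium-like over fibroblast-like cells for each gene and barcode set; bars are exact 95% counting intervals, open symbols have fewer than 3 UMIs in fibroblast-like cells and rest on the floor, and dotted lines mark 2-fold. Cldn12 lies near 0 in all 3 sets and Cdh3 lies at -0.14 in set 1, while the other genes lie to the right of the 2-fold line.

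The next question was which of the genes separate basal from luminal cells. Set 1 had only 1 luminal-like cell, so the contrast was made in sets 2 and 3. Higher by at least 2-fold in luminal-like cells were 3 of the 9 genes in set 2 (Cldn3, Cldn23 and Rab25) and 4 in set 3 (the same 3 and Cgn), where 7.22% and 16.2% of all rows with enough UMIs were that much higher. Higher by at least 2-fold in basal-like cells were 2 genes in set 2 (Cdh3 and Cldn12) and 1 in set 3 (Cdh3), beside 15.1% and 13.0% of all rows. The luminal-like cells were deeper, with median UMIs of 9252 and 9637 against 2680 and 2537 in basal-like cells, and thinned values are given further on. The counts in luminal-like cells fell to 1 in set 2 without integration of the sets and to 1 in set 3 with cells classed one by one from markers, and the count in basal-like cells of set 2 fell to 0 with cells thinned to 900 UMIs.

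The cadherins ran in opposite directions. Cdh3 had 33.0 CPM (26.7 to 40.3) in basal-like cells of set 2 and 28.2 CPM (23.9 to 33.2) in those of set 3. In luminal-like cells it had 0 UMIs in the 70 cells of set 2 and 3 UMIs in the 273 cells of set 3 (0.885 CPM, 0.182 to 2.59). Against the floor of 3 UMIs the basal-like level was higher by a log2 ratio of 2.89 (1.30 to 5.19) in set 2, and it was higher by a log2 ratio of 5.0 (3.42 to 7.29) in set 3. Cdh1 was present in both classes, with 454 and 310 CPM in basal-like and 623 and 468 CPM in luminal-like cells. Its log2 ratios of basal-like over luminal-like cells were -0.45 (-0.61 to -0.29) and -0.59 (-0.69 to -0.49), under 2-fold but beyond counting error. With cells classed one by one the Cdh1 ratio of set 2 turned to 0.15, and the Cdh3 ratios were 1.47 and 2.26.

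Cldn3 showed the widest separation among the claudins. Basal-like cells had 18.4 and 22.7 CPM, and luminal-like cells 430 and 436 CPM, which gave log2 ratios of -4.55 (-5.0 to -4.12) and -4.26 (-4.54 to -3.99). In fibroblast-like cells of the same sets Cldn3 stood at 12.3 and 4.22 CPM, so the basal-like level lay close to that background in set 2 and above it in set 3. With cells classed one by one the Cldn3 ratios shrank to -1.89 and -1.20, and without integration that of set 2 to -2.57, while the direction held under every alternative run. Cldn4 was high in both classes, with 1081 and 1154 CPM in basal-like and 1435 and 1775 CPM in luminal-like cells, and log2 ratios of -0.41 (-0.51 to -0.30) and -0.62 (-0.67 to -0.57). The Cldn4 ratio of set 2 turned to 0.48 without integration. Cldn23 followed Cldn3 at a lower level: 5.90 and 3.22 CPM in basal-like against 56.3 and 32.4 CPM in luminal-like cells, for log2 ratios of -3.26 (-4.17 to -2.40) and -3.33 (-4.16 to -2.59). Its basal-like levels were near those in fibroblast-like cells (3.46 and 1.58 CPM). Cldn12 did not differ between the classes beyond counting error, since its log2 ratio of 1.18 in set 2 rested on 3 UMIs in luminal-like cells (-0.51 to 3.54) and that in set 3 was -0.16 (-0.90 to 0.60).

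F11r differed by less than 2-fold, with 149 and 148 CPM in basal-like and 132 and 102 CPM in luminal-like cells. The log2 ratio was 0.18 (-0.15 to 0.52) in set 2 and 0.54 (0.36 to 0.73), beyond counting error, in set 3. Cgn had 63.5 CPM in basal-like cells of set 2 and 14.6 CPM in those of set 3, against 102 and 53.4 CPM in luminal-like cells, with log2 ratios of -0.69 (-1.09 to -0.27) and -1.87 (-2.27 to -1.48). Subcluster 1, which had over 300 cells in both sets, showed the same gap in Cgn within itself, with 67.5 CPM in set 2 and 14.8 CPM in set 3. Rab25 was lower in basal-like cells, at 42.3 and 48.1 CPM against 151 and 157 CPM, with log2 ratios of -1.84 (-2.23 to -1.44) and -1.71 (-1.93 to -1.49). With cells classed one by one the Rab25 ratio of set 3 was -0.58 and the Cgn ratios were 0.08 and -0.33, and without integration the Rab25 ratio of set 2 was -0.47.

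**Figure D3:**
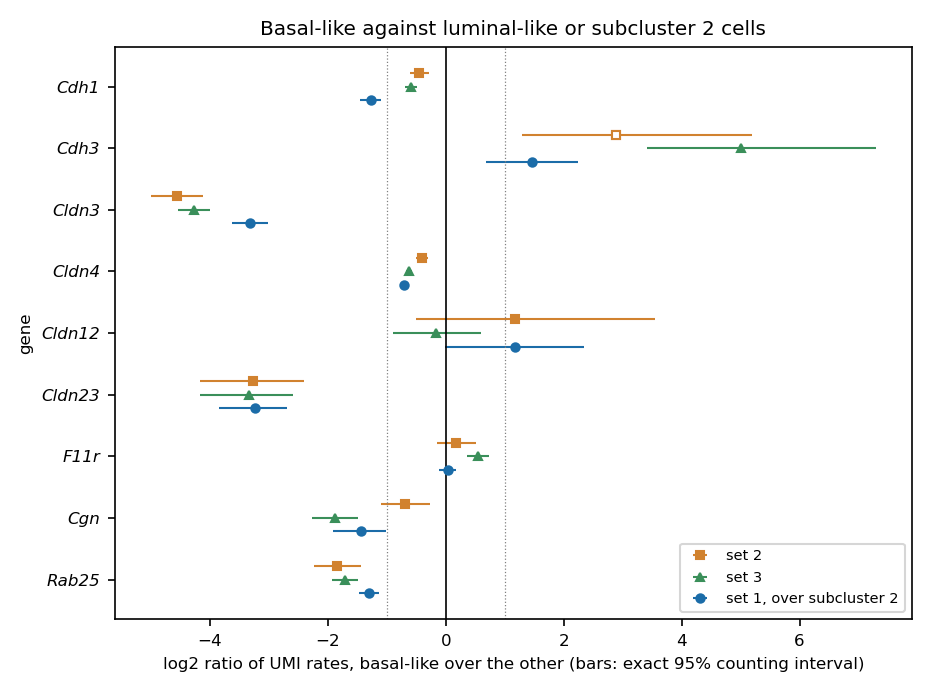
Log2 ratio of the UMI rate in basal-like over luminal-like cells for sets 2 and 3, and over subcluster 2 for set 1, which had no luminal-like class; bars are exact 95% counting intervals, the open symbol rests on the floor of 3 UMIs, and dotted lines mark 2-fold. Cldn3 and Cldn23 lie between -4.55 and -3.24 in all 3 sets, Cdh3 lies at 1.46 or above, and F11r lies between 0.03 and 0.54. At subcluster resolution 0.8 the basal-like class of set 1 held 3 cells. The urothelium markers summed to 6483 CPM in subcluster 2 of set 1, against 941 and 1463 CPM in luminal-like cells of sets 2 and 3. The luminal markers summed to 1614 CPM there, against 1236 and 1788 CPM in those luminal-like cells.

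Set 1 was described through its basal-like cells (41), urothelium-like cells (34) and subcluster 2 (63). The basal label of these 41 cells rested on the subcluster resolution: their 7 basal markers summed to 4047 CPM and their 7 urothelium markers to 2899 CPM, and at resolution 0.8 only 3 cells of set 1 were basal-like, while a subcluster of 40 cells, all of set 1, was classed as urothelium-like. Without integration 0 cells of set 1 were basal-like. The urothelium label of the 34 cells rested on the resolution too. At subcluster resolution 0.3 and clustering resolution 1.0, 0 cells of set 1 were urothelium-like. The 40 cells so classed at 0.8 were led by Wif1, Serpinb2 and Pltp, and Ivl was there a leading gene of an unnamed subcluster. Cldn3 had 59.9 CPM in basal-like, 110 CPM in urothelium-like and 598 CPM in subcluster 2 cells. At the depth of this set, with a median of 27630 UMIs in basal-like cells, its UMIs came from 12 of the 41 basal-like cells and 15 of the 34 urothelium-like cells, but from 62 of the 63 cells of subcluster 2. Cldn4 by contrast was detected in 40 of 41, 33 of 34 and 63 of 63 of the same cells. Cldn23 had 17.8, 81.6 and 168 CPM and Rab25 219, 274 and 541 CPM in that order. Cdh3 fell the other way, with 21.0 CPM (14.5 to 29.5), 13.5 CPM (8.65 to 20.1) and 7.65 CPM (5.04 to 11.1). The log2 ratio of basal-like cells over subcluster 2 was -3.32 (-3.63 to -3.02) for Cldn3, -3.24 (-3.84 to -2.69) for Cldn23, -1.30 (-1.47 to -1.14) for Rab25 and 1.46 (0.68 to 2.25) for Cdh3. F11r had 373, 281 and 366 CPM, with a log2 ratio of basal-like cells of 0.41 (0.23 to 0.58) over urothelium-like cells and 0.03 (-0.12 to 0.17) over subcluster 2.

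The urothelium-like cells of sets 2 and 3 had higher Cldn3 and Cldn4 levels than the basal-like and luminal-like cells, under a label that rested on the resolution. At subcluster resolutions 0.3 and 0.8 and at clustering resolution 1.0, 0 cells of these sets were urothelium-like. Cldn3 stood at 681 and 512 CPM and Cldn4 at 2323 and 2032 CPM, and the log2 ratios of luminal-like over urothelium-like cells were -0.66 (-0.93 to -0.39) and -0.23 (-0.36 to -0.10) for Cldn3, and -0.70 (-0.84 to -0.55) and -0.20 (-0.26 to -0.13) for Cldn4. In these cells the 7 urothelium markers summed to 2348 and 2271 CPM and the 7 basal markers to 3535 and 3570 CPM. The 10 leukocyte markers summed to 2716 and 1873 CPM, against 1.48 and 12.4 CPM in luminal-like cells. Only 1 of them was found in at least 10% of the urothelium-like cells, and 6 in set 2 and 5 in set 3 had 0 UMIs. Cd52, which is on that list, was among the leading genes of subcluster 7. The luminal markers summed to 1653 and 2005 CPM in urothelium-like against 1236 and 1788 CPM in luminal-like cells. The part of the mixed markers in the difference was not tested. In subcluster 8, a luminal-like group with 72 cells in set 3, Cldn3 reached 740 CPM and Cldn4 2958 CPM, against 406 and 1658 CPM in the 201 cells of subcluster 6. Subcluster 3 of sets 2 and 3 had Cldn3 at 469 and 425 CPM, Rab25 at 132 and 177 CPM and Cdh3 at 4.32 and 5.78 CPM. Its Cdh1, at 452 and 325 CPM, did not differ from the basal-like level beyond counting error, with log2 ratios of basal-like cells over it of 0.01 (-0.20 to 0.23) and -0.06 (-0.22 to 0.09). Its Cgn was at 56.2 and 37.6 CPM and its Cldn23 at 21.6 and 16.6 CPM. Subcluster 4, led by muscle and stroma genes, lay between, with Cldn3 at 85.2 and 136 CPM and Cdh3 at 20.3 and 20.8 CPM. The 7 smooth muscle markers summed to 4820 and 2750 CPM there, against 998 and 613 CPM in basal-like cells, and the part of mixed droplets in its levels was not tested.

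Within a class, the balance of the 2 neighbouring genes of a pair does not depend on how deeply the class was read. Cdh3 made up 9.71% (Clopper-Pearson 95% interval 6.78 to 13.4), 6.77% (5.51 to 8.21) and 8.34% (7.10 to 9.72) of the Cdh1 and Cdh3 UMIs of basal-like cells in sets 1 to 3. In subcluster 2 the share was 1.59%, 1.09% and 0.813%, and in luminal-like cells 0 of 420 UMIs in set 2 (Clopper-Pearson upper bound 0.874%) and 0.189% in set 3. Cldn3 made up 4.74%, 1.67% and 1.93% of the Cldn3 and Cldn4 UMIs in basal-like cells, but 23.4%, 29.4% and 23.8% in subcluster 2 and 23.1% and 19.7% in luminal-like cells. Urothelium-like cells had 6.27% (5.45 to 7.18) in set 1 and 22.7% and 20.1% in sets 2 and 3. That label was lost in every set at subcluster resolution 0.3 and clustering resolution 1.0, and in sets 2 and 3 also at subcluster resolution 0.8. Pooled over the whole epithelium the sets were alike, with Cldn3 shares of 16.6%, 16.2% and 16.2% and Cdh3 shares of 3.37%, 3.77% and 3.16%. The pooled classes had unlike weights. Subcluster 2 held 9036 of 14691 Cldn3 and Cldn4 UMIs in set 1, 2687 of 10612 in set 2 and 5881 of 27595 in set 3.

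**Figure D4:**
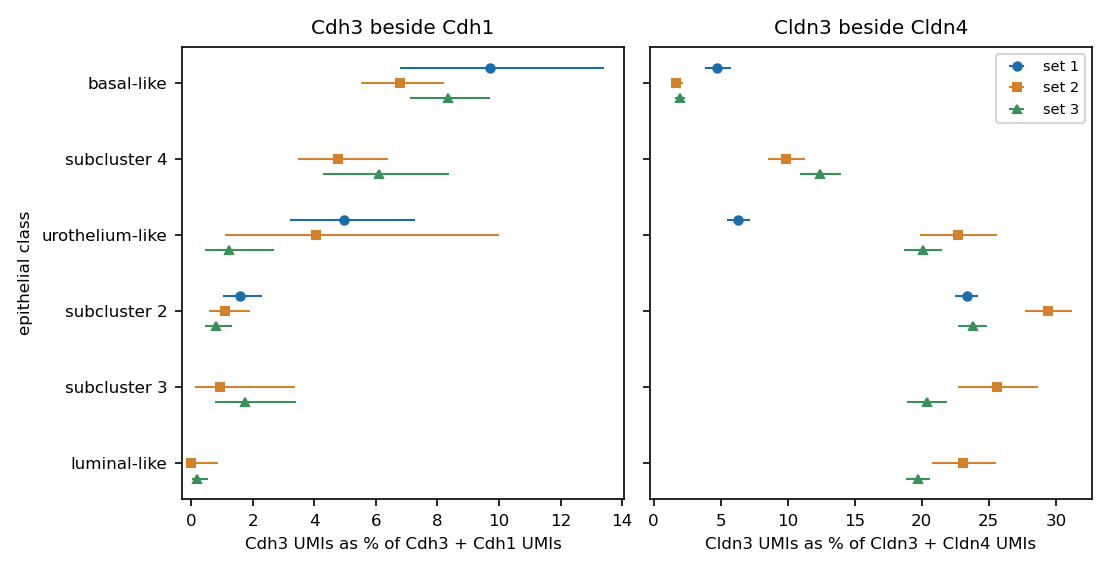
Share of Cdh3 among Cdh1 and Cdh3 UMIs (left) and of Cldn3 among Cldn3 and Cldn4 UMIs (right), in percent, by epithelial class and barcode set; bars are Clopper-Pearson 95% intervals. Basal-like cells have the highest Cdh3 shares (6.77 to 9.71%) and the lowest Cldn3 shares (1.67 to 4.74%) of the classes shown, those of set 1 with the class label that changed at subcluster resolution 0.8.

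Outside the epithelium, F11r in endothelium-like cells, Cldn12 and Cdh3 were set beside the background given by the epithelium markers. Other genes passed the highest marker in 2 further groups of set 2, mostly on single UMIs. In the unnamed cluster 12 (29 cells) these were Cldn23 and Cgn, from 1 UMI each. In glia-like cells they were Cldn23 (25.1%, from 1 UMI) and Rab25 (20%), against a highest marker of 17.4%. F11r stood at 223, 136 and 136 CPM in endothelium-like cells (37, 94 and 199 cells), which is 64.6%, 103% and 115% of its epithelial level. The 13 epithelium markers had medians of 0%, 11.7% and 20.1% there, and the highest of them reached 31.1%, 27.7% and 46.3%. Cdh1 in the same cells was at 0.823%, 11.8% and 31.9%, below the highest marker in each set. The part of epithelial RNA in these values was not tested. All 9 endothelium markers, among them Kdr, Flt1 and Emcn, were detected in at least 10% of these cells. In leukocyte-like cells F11r had 60.5 CPM in set 1 (29 UMIs in 13 of 38 cells), where Cdh1 had 4.17 CPM. This was 17.5% of its epithelial level, above the marker median of 1.4% there and below the highest epithelium marker (Cd24a, 25.4%). Cd24a also reached 49.7% of its epithelial rate in fibroblast-like cells of that set. The 25 leukocyte-like cells of set 2 carried epithelium markers at a median of 43.9% of the epithelial rate, with the highest at 94.5%. F11r was at 64.5% in these cells. In the 177 leukocyte-like cells of set 3 F11r was at 16.9 CPM, or 14.3% beside a marker median of 13.4%.

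Cldn12 was about as abundant in fibroblast-, smooth muscle- and endothelium-like cells as in the epithelium. In smooth muscle-like cells it stood at 6.43, 18.1 and 11.2 CPM, or 123%, 161% and 129% of its epithelial level. In endothelium-like cells it stood at 6.66, 9.39 and 15.6 CPM, from 7, 4 and 13 UMIs. Leukocyte-like cells held 1, 0 and 1 UMIs of it. In glia-like cells it was at 232% of its epithelial level in set 1 (21 cells), from 7 UMIs. It was at 36.2% and 40.4% in glia-like cells of sets 2 and 3, from 1 UMI each, too few to compare the sets.

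Cdh3 in the fibroblast-like cells of set 1 was spread over 57 of 357 cells and over both fibroblast-like clusters, with 17.9 CPM (13.7 to 22.9) in the 219 cells of cluster 1 and 8.28 CPM (5.41 to 12.1) in the 138 cells of cluster 2. The other members that mark epithelium were at 0.214% (Cldn4) to 2.68% (Cgn) of their epithelial levels in those cells, whereas Cdh3 was at 110%. Smooth muscle-like cells of set 1 had 5.14 CPM (2.22 to 10.1), from 8 UMIs. This was 42.5% of the epithelial level, above the highest epithelium marker there (33.7%). In sets 2 and 3 the fibroblast-like level was bounded above by 2.77 and 1.47 CPM, so a level like that of set 1 would have been seen. In endothelium-like cells of set 3 Cdh3 stood at 12 CPM (5.75 to 22.1), from 10 UMIs in 8 cells. It also passed the highest epithelium marker, as a percent of the epithelial level, in endothelium-like cells of set 2 (37.7% against 27.7%, from 3 UMIs) and in the unnamed clusters 7 of set 2 (80.3% against 78.6%, from 11 UMIs), 10 of sets 1 and 2 (35.6% against 28.5%, and 17.9% against 16.4%, from 4 and 1 UMIs) and 12 of set 3 (79.6% against 19%, from 2 UMIs). The 7 basal markers summed to 2370 CPM in the endothelium-like cells of set 3 and to 3987 CPM in the epithelium of that set, and their part in the Cdh3 level was not tested.

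**Figure D5:**
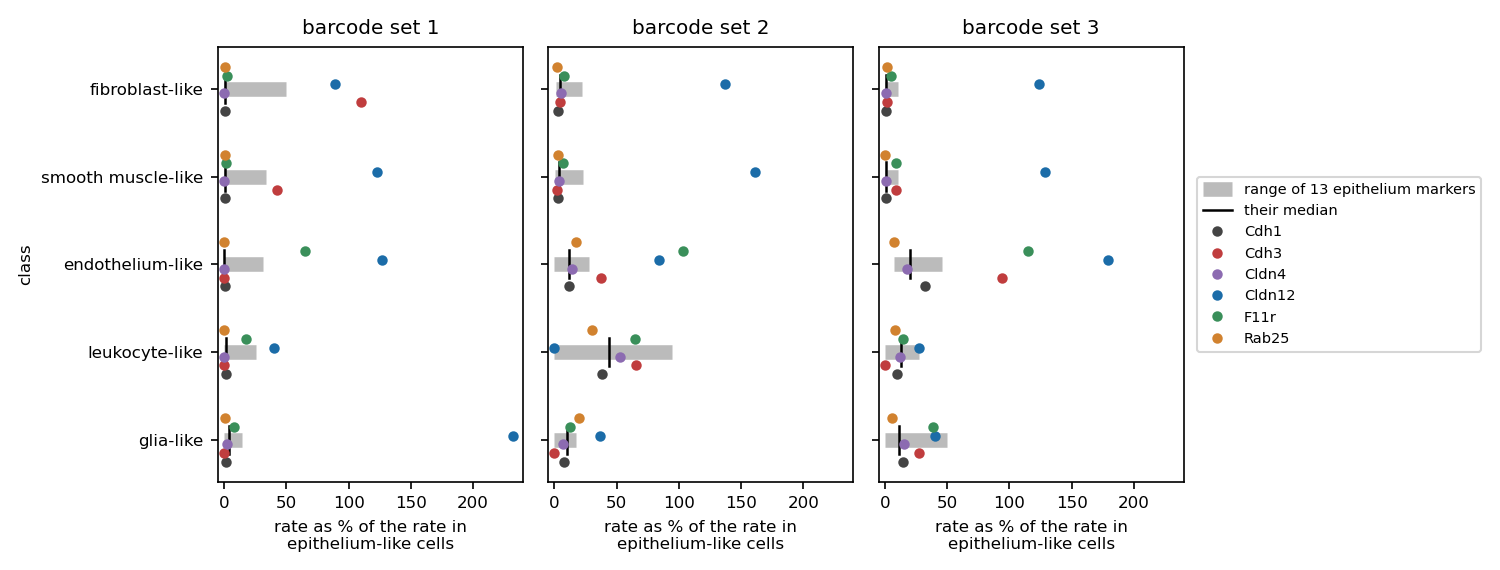
Rate of 6 of the genes in 5 non-epithelial classes as a percent of the rate in epithelium-like cells of the same set; grey bands give the range of the 13 epithelium markers and black ticks their median. F11r lies at 64.6 to 115% in endothelium-like cells, Cldn12 lies at or above 83.7% in fibroblast-, smooth muscle- and endothelium-like cells, and Cdh3 lies at 110% in fibroblast-like cells of set 1.

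To compare shares of cells at equal depth, every cell was thinned to 900 UMIs, which left out 1, 9 and 38 epithelium-like and 2, 199 and 379 fibroblast-like cells. Cldn4 was then detected in 62.4%, 58.5% and 57.6% of epithelium-like cells in sets 1 to 3, against 0 of 355, 3.84% and 1.16% of fibroblast-like cells (0 of 355 allows up to 0.845%, taking 3 cells as the limit of a count of 0). Before thinning the epithelial shares were 97.3%, 92.7% and 83.0%. Cdh1 was detected in 21.5%, 32.9% and 25.3% of thinned epithelium-like cells, and F11r in 28.2%, 12.9% and 12.5%. Cldn3 was detected in 2.29% and 1.71% of basal-like and in 42.9% (31.1 to 55.3) and 37.4% (31.6 to 43.4) of luminal-like cells of sets 2 and 3, at the same 900 UMIs. The Cldn3 shares in fibroblast-like cells were 1.03% and 0.267%. Rab25 was detected in 3.23% and 3.88% of basal-like and 12.9% and 13.6% of luminal-like cells. Cdh3 at this depth was found in 3.1% and 2.76% of basal-like cells and in 0 of 70 and 0 of 273 luminal-like cells, which by the same limit allow up to 4.29% and 1.10%, so the shares of set 2 cannot be told apart. On average 1.64, 1.33 and 1.22 of the 9 genes were detected per thinned epithelium-like cell, against 0.0225, 0.0966 and 0.0382 per fibroblast-like cell.

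The rows whose levels followed each gene most closely over 38 points of class and set were named by a fixed rule (Pearson r of log2(CPM + 5)); the points share libraries and depth, so r is only descriptive. Several of these rows (Fxyd3, Prss8, Tspan1, Tspan8, Ehf, Elf3, Lamb3 and Lsr) were also markers used to name the classes. Cdh1 and Cldn4 had Fxyd3 as the closest row (r = 0.978 and 0.983). Cldn3 was followed by Tspan1, Prss8 (0.95 each) and Tspan8 (0.919), and Rab25 by S100a14 (0.965), Tmc4 (0.951) and Ehf (0.949). Cgn was closest to Ehf (0.932), an epithelial ETS factor, and Cldn23 to Elf3 (0.880), another one. Cdh3 had Lamb3, a laminin chain of the basal cell's anchorage, as its closest row (0.787). F11r was closest to Lsr (0.888), a tricellular junction protein, and Cldn12 had no row above 0.655 (Slc16a9). Among the genes themselves, Cdh1 and Cldn4 were most alike over the 38 points (r = 0.968), but over the 15 epithelial points alone they had r = -0.0815. Over those 15 points Cdh3 and Cldn3 had r = -0.808.

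Other junction genes were read from fixed lists, as context. Of 11 plaque and polarity genes in the table, 7, 6 and 7 were at least 2-fold higher in epithelium-like than fibroblast-like cells in sets 1 to 3, among them Pard6b (log2 ratio 4.90, 3.81 and 6.07, the last on the floor), and 2, 0 and 2 were that much lower (Mpdz and Pard6a), beside 16.2%, 17.5% and 23.2% of all rows higher. The list medians were 1.66, 1.41 and 1.44. Of 6 genes of Rab11 effectors and other Rab GTPases, 4 were higher in each set, among them Rab11fip1, an effector of Rab11 and Rab25 (6.01, 4.44 and 5.22), and 1 was lower (Rab13, -2.37, -1.75 and -1.93). The medians of that list were 2.18, 1.66 and 1.14. Of the other tight junction membrane proteins, Lsr (6.29, 5.02 and 7.30), itself an epithelium marker used to name the class, and Marveld3 (5.64, 3.85 and 4.33, of which sets 1 and 3 rest on the floor) were higher and Ildr2 was lower in sets 1 and 2 (-3.71 and -2.67). Among the other claudins only Cldn11 had enough UMIs and was lower in each set (-3.50, -3.52 and -5.90). Of the other cadherins, Cdh16 had 0 UMIs in fibroblast-like cells of every set, and against the floor its level in the epithelium gave a log2 ratio of 5.02 in set 1, 1.99 (0.34 to 4.33) in set 2 and 1.16 (-0.53 to 3.51) in set 3. Cdh11, a cadherin of mesenchyme, was lower (-5.44, -3.92 and -5.36). Of the catenins and nectins with enough UMIs, 4, 3 and 3 of 4 were higher, among them Nectin4 (4.88, 3.87 and 3.55, the last 2 against 0 UMIs raised to the floor) and Plekha7 (3.41, 2.44 and 3.05). Across all rows 24.3%, 18.9% and 21.3% were at least 2-fold lower in epithelium-like cells.

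The same lists were read between basal-like and luminal-like cells. At least 2-fold higher in luminal-like cells were 2 of 8 plaque and polarity genes in set 2 and 5 of 10 in set 3, including Pard6b (log2 ratio of basal-like over luminal-like -1.05 and -2.19), and 0 were higher in basal-like cells in either set. Of all rows, 7.22% in set 2 and 16.2% in set 3 were that much higher in luminal-like cells. Rab11fip1 was also higher in luminal-like cells (-1.25 and -2.29), 1 of 5 genes of its list in each set, while Rab11fip5 was higher in basal-like cells of set 3 (1.65). Marveld3 was that much higher in luminal-like cells of set 3 (-1.62) and was at -0.87 in set 2. None of the 4 catenins and nectins with enough UMIs passed 2-fold in either direction, and no other claudin or cadherin had enough UMIs.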

How the data were processed

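One table of the whole series was used. The authors counted transcripts with Cell Ranger 3.1.0 (version from the submitters' processing notes) on mm10, and the deposited values are on a natural log scale, ln(1 + 10000 x UMIs of the gene / UMIs of the cell). Each of the 11120281 values above 0 gave a whole UMI within 0.05, and these UMIs were analysed. The table was held in part: its rows hold 52.7%, 50.4% and 49.4% of the UMIs of sets 1 to 3. One row cut short and 2 rows sharing a name were left out. Whether counting used strand is not given in the sources used here, and Cldn3 and Cgn overlap the long noncoding genes Wbscr25 and Gm52626. Of the 10x chemistry, version 3 is given by the labels and version 2 by the methods.

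Cells with at least 200 genes (97 of set 3 were left out) were integrated over the sets and clustered with Seurat 5.3.0 at resolution 0.5, without the 9 genes. A cluster was named where it carried at least 3 fixed markers of a class, each in 10% of its cells and at least 2-fold (1.5-fold for subclusters) above the median cluster, provided that no other class with 3 or more carried over 0.5 of that share or had more markers among the 10 leading genes. UMIs were summed per class. Intervals are exact 95% intervals (Poisson, Clopper-Pearson, or a binomial split for ratios, with a floor of 3 UMIs), except that a share of 0 cells carries the limit of 3 cells, and a ratio entered counts with at least 20 UMIs. Scores of Scrublet (scanpy 1.11.5) called 3, 0 and 1 doublets, and why the calls were so few was not tested. The study's methods say that multiplets were filtered, and an alternative removed the top 5% of scores. Scripts ran in Python 3.11.15 and were tested on simulated data. Named were the 9 genes, the fixed lists and the 3 closest rows of each gene, some of which are not reported here. The genes and lists were chosen with earlier results of these data known, and the naming rules after clustering and after values of the genes were seen.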

Additional observations from a re-analysis of the deposited data

How the results depend on the processing

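The alternatives were a higher resolution, sets left unintegrated, a minimum of 1000 genes in a cell, removal of high doublet scores, cells classed one by one from markers, thinning, a mean over cells, a floor of 1 UMI, at least 100 UMIs and other subcluster resolutions. The counts of genes higher in epithelium-like than fibroblast-like cells were 5 to 7 in set 1, 7 to 8 in set 2 and 8 in set 3, where the 5 were of 5 genes with enough UMIs after thinning and the 7 of set 2 were of 8 without integration. The count higher in luminal-like cells of set 2 was 3 and became 1 without integration, which left 26 basal-like cells there, and 2 with thinning and with at least 100 UMIs. That of set 3 was 4 and became 1 with cells classed one by one and 3 with thinning. The count higher in basal-like cells of set 2 was 2 and became 1 at resolution 1.0, with cells classed one by one, with a mean over cells and at subcluster resolution 0.8, and 0 without integration, with cells thinned to 900 UMIs and with at least 100 UMIs. The causes were not tested, except that thinning leaves fewer UMIs and the minimum of 100 UMIs lets fewer genes enter. The count higher in basal-like cells of set 3 was 1 throughout. No basal-like or luminal-like class was named at subcluster resolution 0.3, and no fibroblast-like cluster with at least 1000 genes per cell, so these gave no value. Of the ratios of single genes, 32 of the epithelium to fibroblast and 42 of the basal to luminal values moved beyond the counting interval, against 178 and 126 that did not. Of the shares of cells with a UMI, 40 moved and 41 did not. No paired analysis was possible because each age had 1 library.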
